A study of Arabidopsis thaliana with 13 samples.

Results

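The first 2 days of synchronous flower induction were examined at the level of miRNA genes in *Arabidopsis thaliana*, by setting inflorescences collected on day 2 against inflorescences collected on day 0. The members are the miRNA genes with at least 1 RPM (a gene's reads scaled to the library's mapped reads) in at least 2 of the 5 libraries of these days, which holds for 109 of the 325 miRNA genes in the deposited table. Of the other 216 genes, 134 were at 0 in all 5 libraries and 82 had some signal, 4.23 RPM at most. The rule used the level of a gene over the 5 libraries and not its change. Still, 4 of the 109 genes were under 1 RPM in both day 0 libraries and 2 in all 3 day 2 libraries. These passed only through the other day, and they are part of the counts by direction below. The genes just inside the rule were *MIR166b* and *MIR8175*, each with 1.60 and 1.41 RPM in 2 libraries and 0 in the others, and the most abundant gene just outside was *MIR5639*, with 4.23 RPM in 1 library and under 1 RPM in the other 4.

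All plants were of the Landsberg ecotype and carried pAP1:AP1:GR in the *ap1 cal* background, on day 0 as well as on day 2. AP1 is the MADS-domain factor that specifies floral meristems, and in the *ap1 cal* double mutant meristems keep proliferating in place of making flowers. AP1-GR is expressed from the *AP1* promoter and is held out of the nucleus until the steroid dexamethasone (DEX) is given, so that many flowers then start together. The 2 day 0 libraries are labelled as not treated and the 3 day 2 libraries as given DEX. No mock-treated library is part of the comparison, so that DEX, AP1-GR activity and 2 days of further growth cannot be told apart. The library titled day 2 replicate 1 carries a time label of 0 days beside DEX as its agent, and it was taken as day 2 by its title. The sources disagree on the DEX concentration (2 µM in the paper, 2 mM in the labels, 1 µM in the series description) and on the kits (miRNeasy and TruSeq Small RNA in the paper, RNeasy and TruSeq Stranded Total RNA in the labels). The paper speaks of 3 biological replicates, the labels list 2 for day 0, and no label ties a replicate to plants of its own, so the p-values measure only the spread between these libraries. The table holds miRNA genes only, so the tissue label could not be checked against coding marker genes.

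Plant miRNAs are cut by DCL1 from the stem of a hairpin transcript, loaded mostly onto AGO1, and guide the cleavage or repression of transcripts with near-complete complementarity. Several conserved families act at the switch from vegetative to reproductive growth. miR156 and miR157 hold back *SPL* genes, miR172 holds back *AP2*-like genes, and miR159, miR319, miR164 and miR165 with miR166 act on *MYB*, *TCP*, *CUC* and HD-ZIP III genes that shape the flower and its organs. Most families have several loci whose mature sequences are alike or identical, and this decides what can be counted at each locus. Reads with several mapping places were left out of the authors' counts, so a mature sequence found at several places adds nothing.

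The mature sequences of the 7 genes that lead the ranking by p-value are shown because they define what those loci could contribute. They were read from the RefSeq annotation and genome of TAIR10.1, 5′ to 3′, with bases 2 to 8 (the seed) in capitals.
miR861-3p: gAUGGAUAugucuucaaggac
miR861-5p: cCUUGGAGaaauaugcgucaa
miR157d: uGACAGAAgauagagagcac
miR165a-3p: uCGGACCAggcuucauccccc
miR165a-5p: gGAAUGUUgucuggaucgagg
miR5012: uUUUACUGcuacuuguguucc
miR160c-3p: cGUACAAGgagucaagcauga
miR160c-5p: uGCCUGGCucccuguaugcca
miR390a-3p: cGCUAUCCauccugaguuuca
miR390a-5p: aAGCUCAGgagggauagcgcc
miR164c-3p: cACGUGUUcuacuacuccaac
miR164c-5p: uGGAGAAGcagggcacgugcg
Both sequences of *MIR861* and the sequence of *MIR5012* are found at 1 place in the genome. miR157d is found at 4 places, and at 2 even with the next genomic base added, so exact reads of it are not counted for *MIR157d*. miR160c-5p is found at 3 places and miR390a-5p at 2, so that only their 3p partners are unique. miR165a-3p is unique only with the next base and miR164c-5p only through its last base.

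The miR159 and miR319 loci are shown because they held a large part of all counted reads and because their identity rests on the 3′ end.
miR159a: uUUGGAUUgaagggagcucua
miR159b-3p: uUUGGAUUgaagggagcucuu
miR159c: uUUGGAUUgaagggagcuccu
miR319a: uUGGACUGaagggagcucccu
miR319b: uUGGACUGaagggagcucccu
miR319c: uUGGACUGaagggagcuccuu
The 3 miR159 sequences share the seed UUGGAUU and the 3 miR319 sequences the seed UGGACUG. miR319a and miR319b are the same sequence and become unique only with the next base, while miR159a and miR159b-3p are each unique only through the last base. Over the 109 genes, 108 had a mature sequence in the annotation, 84 had at least 1 that is found at 1 place, and 24 had none. In 21 genes a mature sequence is unique only by virtue of its final base or of the genomic base after it, and these are called end-dependent below. The 160 mature sequences have 130 seeds, of which 20 occur at more than 1 of the 109 loci. The widest shared are CGGACCA (5 loci of miR165 and miR166), GACAGAA (3 loci of miR156 and *MIR157d*) and GGAGAAG (3 loci of miR164 and *MIR835*). In the annotation, 77 of the 108 hairpins overlap no protein-coding gene, 15 lie in an intron and 16 in an exon of one, on either strand.

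The low RPM values of a library are whole multiples of 1 step, the RPM of 1 read, and this step gave 1250213 and 1598991 mapped reads for the day 0 libraries and 1360793 to 2142752 for the day 2 libraries. A gene at 0 could still have 3 reads, which is 1.40 to 2.40 RPM (this covers counting error only, as no molecular identifiers were used). The estimated reads of every pair of replicates differed by more than sampling noise in a chi-square test, and each library was kept as a sample. Days 0 and 2 were sequenced in the same run by the deposited run table, where the run is written beside the first library of each block and was carried over to the rest. Reads of miRNA genes were 2.90% and 2.62% of the mapped reads on day 0 and 2.28%, 2.85% and 2.64% on day 2. The means were 2.76% ± 0.197 (SD, n = 2) and 2.59% ± 0.287 (SD, n = 3), and the difference was within the spread (exact permutation test, two-sided, p = 0.5, where 0.1 is the smallest p that 3 against 2 libraries allow).

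No miRNA gene passed the test between day 0 and day 2 (0.0% of 109, limma on log2(RPM + 1), Benjamini-Hochberg adjusted p under 0.05; the smallest adjusted p was 0.535). At an unadjusted p under 0.05 there were 7 genes (6.42% of 109), 4 with a higher mean on day 2 (3.67%) and 3 with a lower one (2.75%). The log2 fold changes lay on both sides of 0, with 52 above and 57 below it and a median of -0.02. Scaling to the sum of all miRNA genes in place of all mapped reads turned this to 64 above and 45 below. In 25 genes (22.9% of 109) the libraries of the days did not overlap, 11 higher (10.1%) and 14 lower (12.8%) on day 2. With 3 against 2 libraries such an order is frequent even without a change, so it is a description and not a test. Summed over the loci of each family, 0 of 85 families passed (0.0%), with 7 at an unadjusted p under 0.05 (8.24%).

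A missed threshold does not show that levels were alike, so the 95% interval of each change was read as well. It lay within 2-fold in both directions for 35 of 109 genes (32.1%). These were all 14 genes with a mean of at least 100 RPM, 15 of the 22 genes with 10 to 100 RPM and 6 of the 73 genes under 10 RPM. The median width to each side was 0.36 on the log2 scale in the first class, 0.66 in the second and 1.02 in the third. For the 14 abundant miRNA genes a 2-fold change was thus outside the interval, and for most genes under 10 RPM the interval did not exclude it. The count depends on the scale, since a pseudocount of 5 gave 103 of 109 and no filter on low values gave 78 of 191.

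**Figure D1:**
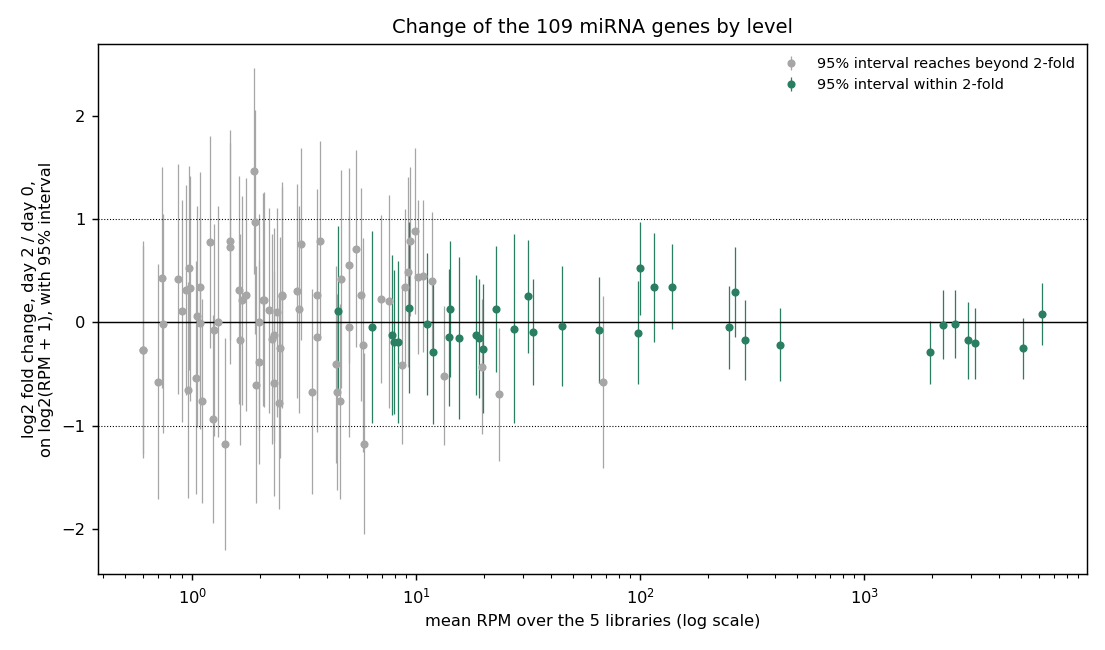
Log2 fold change (day 2 over day 0, on log2(RPM + 1)) of each of the 109 miRNA genes against its mean RPM over the 5 libraries (log axis), with bars for the 95% interval from limma and dotted lines at 2-fold. The 14 genes of at least 100 RPM have intervals inside the dotted lines, and most genes under 10 RPM have intervals that cross one of them.

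Of the reads counted in miRNA genes, the 10 most abundant genes took 93.9% to 94.8%, and the first 7 of these took 90.0% to 91.3%. *MIR158a*, whose miRNA targets pentatricopeptide repeat (PPR) genes, was first in every library, with 6512 and 5537 RPM on day 0 and 5577, 7424 and 6187 RPM on day 2. The day 2 libraries spanned most of the range of day 0 and reached above it. Its log2 fold change was 0.08 (SE 0.15, 95% interval -0.22 to 0.38, adjusted p = 0.931 from limma). *MIR161*, also of a PPR-targeting miRNA, had 2758 and 2321 RPM on day 0 and 2018, 3062 and 2529 RPM on day 2, with both day 0 libraries inside the range of day 2.

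All 6 loci of miR159 and miR319 were in the upper ranks. *MIR159a*, whose miRNA represses GAMYB-type *MYB* genes, had 6029 and 5317 RPM on day 0 and 4576, 5268 and 4472 RPM on day 2. The highest day 2 library was just under the lower day 0 library, and the log2 fold change was -0.25 (SE 0.15, 95% interval -0.55 to 0.04, adjusted p = 0.707). *MIR159b* had 2489 and 2063 RPM on day 0 and 2018, 2356 and 2328 RPM on day 2, and these overlapped. *MIR159c* had 446 and 466 RPM on day 0 and 344, 401 and 439 RPM on day 2, without overlap. *MIR319a*, whose miRNA targets *TCP* genes and whose locus is known for its role in petals, had 2192 and 2203 RPM on day 0 and 1617, 1848 and 1937 RPM on day 2. Its day 2 libraries were all below day 0, and its log2 fold change was -0.29 (SE 0.15, 95% interval -0.60 to 0.02, adjusted p = 0.707). *MIR319b* had 3314 and 2888 RPM on day 0 and 2566, 2641 and 3053 RPM on day 2, and *MIR319c* had 3202 and 3533 RPM on day 0 and 2322, 3056 and 3504 RPM on day 2, both with overlap. For the list of these 6 loci the log2 fold changes were all below 0, from -0.29 to -0.02 with a median of -0.21, beside a median of -0.02 over the 109 genes. That count was 5 of 6 when scaled to the sum of all miRNA genes and 3 of 6 in the authors' quantile-normalized table, and no locus passed the test. In the quantile-normalized table *MIR159a* and *MIR159c* were at 0 up to rounding, and *MIR159b* was at 0.38. The 95% interval was within 2-fold for all 6, and 4 of the 6 are end-dependent.

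**Figure D2:**
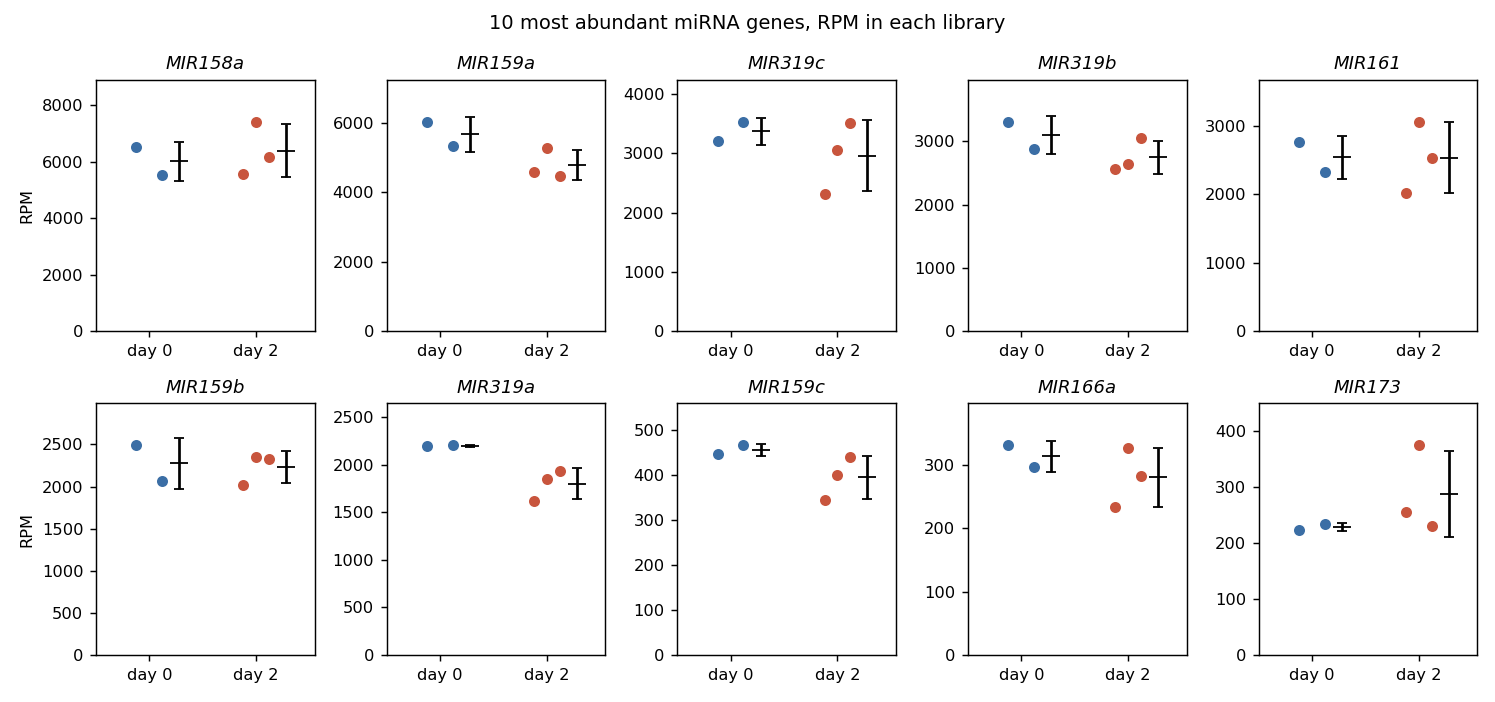
RPM of the 10 most abundant miRNA genes in each library of day 0 (2 blue points) and day 2 (3 red points), with the mean and SD beside them in black and every vertical axis starting at 0. *MIR159a*, *MIR319a* and *MIR159c* have day 2 points all below day 0, and the points of the other 7 genes overlap.

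The remaining abundant genes were *MIR166a*, of an HD-ZIP III-targeting miRNA, with 331 and 296 RPM on day 0 and 234, 326 and 282 RPM on day 2, and *MIR173*. Both mature sequences of *MIR166a* are found at several places (miR166a-3p at 7 and miR166a-5p at 2, and at 4 and 2 with the next base added), so exact reads of them are not among its counts. miR173 triggers trans-acting siRNAs from *TAS1* and *TAS2* transcripts. *MIR173* had 224 and 234 RPM on day 0 and 256, 375 and 231 RPM on day 2, where day 2 replicate 2 stood above the other 4 libraries. The same library was the highest of the 5 in 6 of the 14 genes of at least 100 RPM and day 2 replicate 1 the lowest in 8 of them. Within day 2, the coefficient of variation of these 14 genes had a median of 15.6%, and within day 0 of 8.35%.

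At the top of the ranking, the 4 genes with higher means on day 2 were *MIR861*, *MIR165a*, *MIR160c* and *MIR390a*. They are named for their rank and not as changed genes, since each had an adjusted p of 0.535 from limma. *MIR861* (AT3G48201, chromosome 3 of TAIR10.1 from 17838135 to 17838266) had 0.800 and 0 RPM on day 0 and 1.40, 3.67 and 3.53 RPM on day 2. It reached 1 RPM in day 2 libraries only, as did 3 others of the 109 genes, so that it could enter the comparison only with a higher level on day 2. Its estimated reads were 1 on day 0 and 13 on day 2 over all libraries, and its fitted log2 fold change of 1.46 (SE 0.49) depends on the pseudocount at such counts.

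*MIR165a* (AT1G01183, chromosome 1 from 78927 to 79037) was the only one of the 7 with about 100 RPM. It belongs to miR165, which confines the HD-ZIP III genes *PHB*, *PHV* and *REV* to the upper side of lateral organs. It had 78.4 and 78.8 RPM on day 0 and 104, 140 and 100.2 RPM on day 2. The groups did not overlap, with means of 78.6 ± 0.292 (SD, n = 2) and 115 ± 22.3 RPM (SD, n = 3), and the log2 fold change was 0.52 (SE 0.22, 95% interval 0.08 to 0.97). Its counted reads rest on the next base beside miR165a-3p or on miR165a-5p, as the sequences above show. The other loci with the seed CGGACCA were on both sides of 0. *MIR166a*, whose counts hold no exact reads of its mature sequences, had a log2 fold change of -0.17 (SE 0.19), and over the 5 tested loci of miR165 and miR166 3 were above and 2 below 0 with a median of 0.06. In the quantile-normalized table the split was 2 above and 3 below.

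*MIR160c* (AT5G46845, chromosome 5 from 19009094 to 19009182) belongs to miR160, which targets the auxin response factors *ARF10*, *ARF16* and *ARF17*. It had 5.60 and 6.25 RPM on day 0 and 11.2, 18.4 and 7.76 RPM on day 2, without overlap, and its log2 fold change was 0.88 (SE 0.40, 95% interval 0.08 to 1.68). Exact reads of miR160c-5p, found at 3 places and at 2 with the next base added, are not among these values. *MIR160a*, another locus of miR160, lay on the other side of 0, with a mean of 6.01 RPM on day 0 and 3.61 RPM on day 2. *MIR167a*, of the *ARF6*- and *ARF8*-targeting miR167, had 114 and 90.7 RPM on day 0 and 87.3, 115 and 83.9 RPM on day 2, and these overlapped. These reads rest on the next base beside miR167a-5p or on miR167a-3p. Of the 5 auxin-related loci 3 were above and 2 below 0, with a median of 0.13.

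*MIR390a* (AT2G38325, chromosome 2 from 16061954 to 16062060) belongs to miR390, which acts with AGO7 on *TAS3* to give the siRNAs that restrain *ARF3* and *ARF4*. It had 5.60 and 6.88 RPM on day 0 and 12.1, 10.3 and 12 RPM on day 2. Each day 2 library was above each day 0 library, and the log2 fold change was 0.79 (SE 0.36, 95% interval 0.07 to 1.51). *MIR390b* had the same order, with 2.40 and 5.0 RPM on day 0 and 7.93, 5.88 and 5.64 RPM on day 2. Together the miR390 loci had 8.00 and 11.9 RPM on day 0 and 20.1, 16.2 and 17.6 RPM on day 2, which gave 0.81 on the log2 scale (SE 0.32, adjusted p = 0.314 over 85 families, limma). The 5p sequences of both loci are found at 2 places, also with the next base added. Exact reads of them are not among these values, so their abundance is not covered. The 3 tested loci of the trans-acting siRNA triggers, *MIR173*, *MIR390a* and *MIR390b*, were all above 0, with a median of 0.72, under each of the 3 other scalings as well. None of them passed the test.

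The 3 genes at the top of the ranking with lower means on day 2 were *MIR157d*, *MIR5012* and *MIR164c*, again with an adjusted p of 0.535 each. *MIR157d* (AT1G48742, chromosome 1 from 18026811 to 18027031), of the *SPL*-targeting miR157, had 8.80 and 9.38 RPM on day 0 and 5.13, 3.67 and 2.12 RPM on day 2. All day 2 libraries were below day 0, and the log2 fold change was -1.17 (SE 0.44, 95% interval -2.05 to -0.29). In estimated reads this is 11 and 15 on day 0 and 11, 5 and 3 on day 2, and as its mature sequence occurs at 4 places, exact reads of it are not among them. The other 3 tested loci of the phase change list gave no common direction. *MIR156b* had 10.4 and 6.88 RPM on day 0 and 11.2, 11.8 and 6.35 RPM on day 2. *MIR156d* had 5.60 and 5.0 RPM on day 0 and 4.20, 4.41 and 2.82 RPM on day 2, and *MIR156c* stayed between 1.41 and 2.94 RPM in all 5 libraries. In this list 1 locus was above and 3 below 0, with a median of -0.26, and the 20-base 5p sequence of miR156 occurs at 6 places, so the abundance of the miRNA itself is not covered by these values.

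*MIR164c* (AT5G27807, chromosome 5 from 9852674 to 9852775) encodes a member of miR164, which limits the *CUC* genes of organ boundaries, and its mutant makes extra petals. It had 33.6 and 27.5 RPM on day 0 and 19.6, 23.5 and 13.4 RPM on day 2, without overlap. Its log2 fold change was -0.70 (SE 0.32, 95% interval -1.34 to -0.05). *MIR164a*, of the same seed GGAGAAG, had 9.60 and 4.38 RPM on day 0 and 10.3, 5.14 and 8.46 RPM on day 2, which overlapped. All 3 loci of the organ boundary list are end-dependent. *MIR5012* (AT2G07205, chromosome 2 from 8432648 to 8432796) had 3.20 and 1.88 RPM on day 0 and 0.467, 1.47 and 0 RPM on day 2, an estimated 7 reads on day 0 and 3 on day 2 over all libraries.

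**Figure D3:**
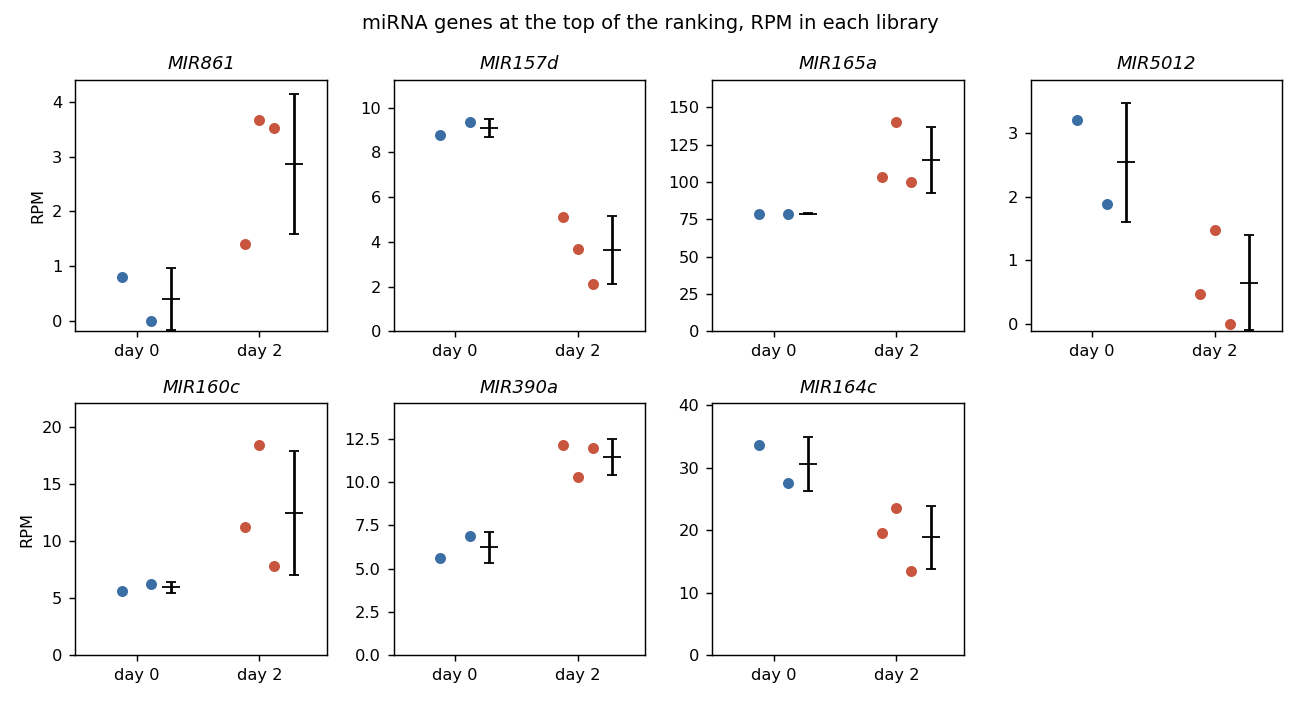
RPM in each library of the 7 miRNA genes with the smallest p-values, day 0 (2 blue points) against day 2 (3 red points), with mean and SD in black. In every panel the points of the days do not overlap, *MIR165a* is the only gene at about 100 RPM, and *MIR861* and *MIR5012* stay under 4 RPM.

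For the further lists, the values of the loci with most counted reads were as follows. *MIR172d*, of the *AP2*-targeting miR172, had 44.0 and 45.7 RPM on day 0 and 49.0, 55.8 and 30.3 RPM on day 2. The day 2 libraries lay on both sides of day 0, with a log2 fold change of -0.04 (SE 0.29, 95% interval -0.62 to 0.54). *MIR172e* had 4.00 and 1.25 RPM on day 0 and 3.73, 2.94 and 2.82 RPM on day 2. *MIR172a* was at 0 in all 5 libraries, and *MIR399a* had 1 read in 1 of them. miR172a and miR172d-3p are each found at 2 places, also with the next base added, so that exact reads of them are not counted. The values of *MIR172d* thus do not give the abundance of miR172d-3p.

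*MIR396b*, of the miR396 that targets *GRF* genes of cell proliferation, had 104 and 66.9 RPM on day 0 and 42.5, 71.3 and 56.4 RPM on day 2. *MIR396a* had 34.4 and 14.4 RPM on day 0 and 19.1, 16.9 and 13.4 RPM on day 2. The day 0 libraries of both loci differed widely from each other, and both loci are end-dependent. The miR396 sum was 138 and 81.3 RPM on day 0 and 61.6, 88.2 and 69.8 RPM on day 2, and its log2 fold change was -0.55 (SE 0.26, 95% interval -1.07 to -0.02, adjusted p = 0.508 from limma). This value rests on the day 0 libraries, since it was -0.17 (SE 0.34) without day 0 replicate 1 and -0.93 (SE 0.33) without day 0 replicate 2. For *MIR396a* the sign turned without day 0 replicate 1, to 0.17 (SE 0.41).

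*MIR824*, of the miRNA against the MADS-box transcript *AGL16*, had 16.0 and 25.0 RPM on day 0 and 15.4, 22.0 and 16.9 RPM on day 2. *MIR403*, of an *AGO2*-targeting miRNA, had 73.6 and 61.9 RPM on day 0 and 61.1, 72.8 and 59.3 RPM on day 2. *MIR168a*, of an *AGO1*-targeting miRNA, had 12.8 and 9.38 RPM on day 0 and 8.87, 15.4 and 9.17 RPM on day 2. miR168a-5p is found at 2 places, also with the next base added, so exact reads of it are not among the *MIR168a* values. In these 3 genes the days overlapped, and the widest bounds of their 95% intervals were -0.73 and 0.67 on the log2 scale. *MIR824* lies opposite an exon of AT4G24413, and whether reads of the opposite strands were kept apart is not given in the sources used here.

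*MIR827*, of the miRNA that targets the phosphate nutrition gene *NLA*, had 92.0 and 106 RPM on day 0 and 105, 124 and 152 RPM on day 2, with a log2 fold change of 0.34 (SE 0.26). *MIR858a*, whose miRNA targets *MYB* genes of flavonol synthesis, had 19.2 and 19.4 RPM on day 0 and 14, 19.1 and 20.5 RPM on day 2. *MIR408*, of a copper-responsive miRNA and opposite an exon of AT2G47020, had 4.00 and 2.50 RPM on day 0 and 1.40, 8.08 and 7.05 RPM on day 2, with day 2 on both sides of day 0. *MIR171c*, of the *SCL*-targeting miR171, had 5.60 and 6.25 RPM on day 0 and 2.33, 3.67 and 4.23 RPM on day 2, without overlap (log2 fold change -0.67, SE 0.47). miR171b-3p and miR171c-3p are each found at 2 places, also with the next base added, so exact reads of them are not counted at these loci. *MIR171b* overlapped between the days, and so did *MIR399b* and *MIR858b*. *MIR169a*, of the NF-YA-targeting miR169, stayed between 1.25 and 2.12 RPM in all 5 libraries.

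Genes of families numbered 400 and above that are in none of the other family lists made up 59 of the 109. Many of them are young and without a known role. Of these 30 were above and 29 below 0, with a median of 0.01, and the largest and smallest log2 fold change of all, *MIR861* and *MIR5012*, are both among them. *MIR863* had 281 and 225 RPM on day 0 and 203, 316 and 224 RPM on day 2, with overlap. *MIR775*, whose miRNA targets a galactosyltransferase gene, had 119 and 118 RPM on day 0 and 134, 170 and 150 RPM on day 2, without overlap, and its log2 fold change was 0.35 (SE 0.20, 95% interval -0.07 to 0.76, adjusted p = 0.707). In the quantile-normalized table its sign turned, to -0.07 (SE 0.14). Of the families under 400 in no list, *MIR391* had 1.60 and 2.50 RPM on day 0 and 2.80, 8.82 and 2.82 RPM on day 2. *MIR163* overlapped between the days.

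**Figure D4:**
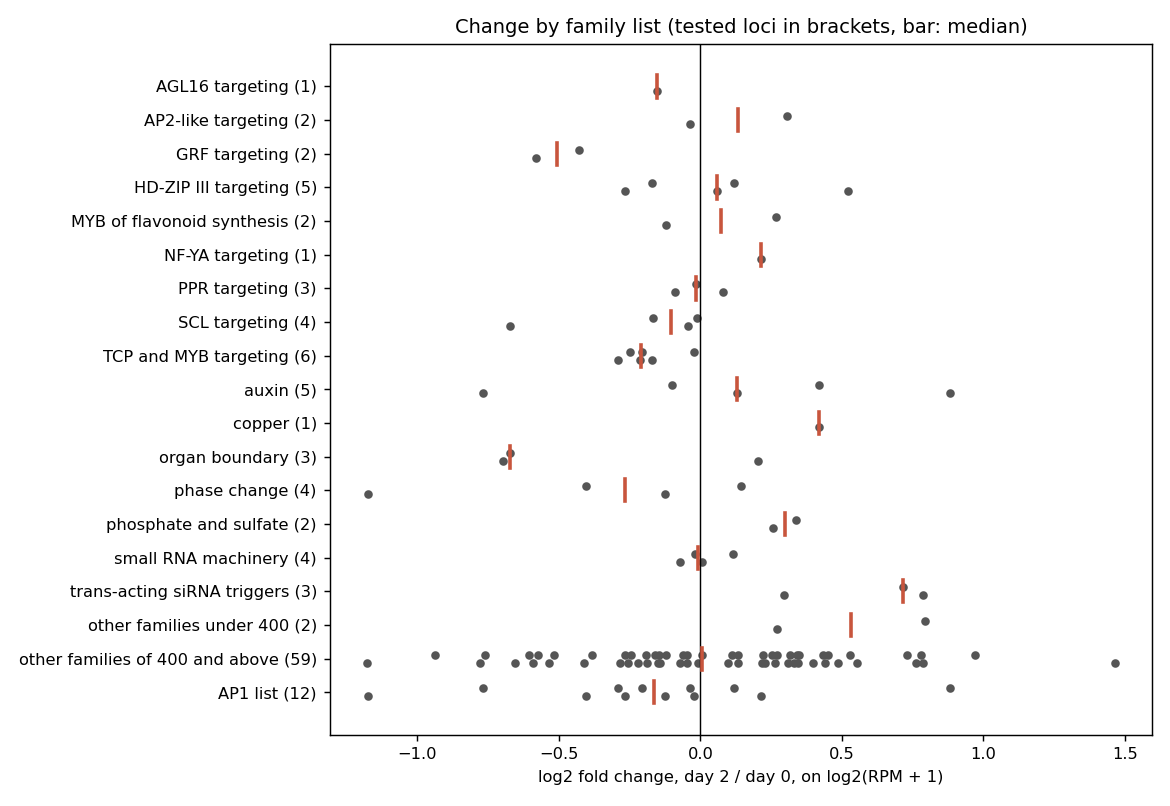
Log2 fold change (day 2 over day 0, on log2(RPM + 1)) of each tested locus by family list, with red bars at the median and the number of loci in brackets. The 6 miR159 and miR319 loci lie below 0 and the 3 loci of the trans-acting siRNA triggers lie above it. The 59 loci of the other families of 400 and above, in none of the named lists, spread evenly around it.

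Among families, miR394, which targets the F-box gene *LCR*, was ranked by its sum although none of its loci is among the 109. It had 1.60 and 1.25 RPM on day 0 and 0 in the 3 day 2 libraries, all within what 3 reads allow, so no fold is given. The study's regulatory network lists 25 miRNA genes of the table with AP1 as a regulator, and 12 of them are among the 109. Of these 12, 0 passed the test, 3 were above and 9 below 0, and the median log2 fold change was -0.16, beside -0.02 for all 109 genes. Scaled to the sum of all miRNA genes the split was 5 and 7, and with quantile-normalized values it was 4 and 8.

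The step from day 0 to day 2 was also set against the step from day 4 to day 8. Both lie within a sequencing run and share no library, and the contrast of the steps was tested in the same limma fit. In the later step 16 of the 109 genes passed the test (14.7%), 12 higher and 4 lower on day 8. The steps differed for 11 genes at an adjusted p under 0.05 (10.1% of 109), 2 with a higher and 9 with a lower value for the first step. The largest difference was in *MIR157d*, which had 1.08 and 2.94 RPM on day 4 and 11.2, 15.4 and 13.3 RPM on day 8, against the lower values on day 2 than on day 0 given above (difference of log2 fold changes -3.48, SE 0.62, adjusted p = 0.000161). *MIR824* had 18.4 and 31.1 RPM on day 4 and 106, 90.7 and 87.6 RPM on day 8 and overlapped between day 0 and day 2, a difference of -2.09 (SE 0.40, adjusted p = 0.000371). *MIR167a* had 16.2 and 24.7 RPM on day 4 and 76.6, 55.1 and 60.3 RPM on day 8, a difference of -1.72 (SE 0.35, adjusted p = 0.000527). The day 4 levels of *MIR167a* were below its levels on days 0 and 2, which are of another run, and stage and run cannot be told apart there. The counted reads of *MIR167a* rest on the next base beside miR167a-5p or on miR167a-3p. *MIR319b*, in the other direction, had 164.1 and 125 RPM on day 4 and 46.5, 59.3 and 67.3 RPM on day 8, a difference of 1.14 (SE 0.26, adjusted p = 0.00182), and *MIR172d* had 33.5 and 41.7 RPM on day 4 and 15.5, 18.1 and 12.1 RPM on day 8, a difference of 1.22 (SE 0.41, adjusted p = 0.0487). The count rests on the fit and on single libraries, since it was 2 without limma's trend, 3 with the quantile-normalized table, 4 without day 2 replicate 1, 5 without day 4 replicate 1 and 7 without day 0 replicate 1. *MIR157d* passed under each of the 20 alternatives in which it could be tested, *MIR824* under all but 1 of 21, *MIR167a* under all but 1 of 20 and *MIR319b* under all but 2 of 20. The *MIR157d* value rests on few reads on day 4, as 1 read is 1.08 RPM in replicate 1 and 0.587 RPM in replicate 2. Exact reads of miR157d are not among its counts, and those of miR172d-3p are not among the counts of *MIR172d*. The *MIR172d* call was lost under 13 of 21, among them the fits without either day 0 library, without day 2 replicate 1 or 2 and without either day 4 library (adjusted p from 0.0100 to 0.169 over the alternatives). The levels of *MIR319b* differed greatly between the runs, 2566 to 3314 RPM in the first 5 libraries and 46.5 to 164.1 RPM in the others, and stage and run cannot be told apart there. The miR319 sum was 6504 to 8707 RPM in the first 5 libraries and 6947 to 9358 RPM in the others. Its steps did not differ (-0.11, SE 0.22, adjusted p = 0.808 over 85 families, limma). As miR319a and miR319b are the same sequence, the *MIR319b* values do not give the abundance of the miRNA.

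**Figure D5:**
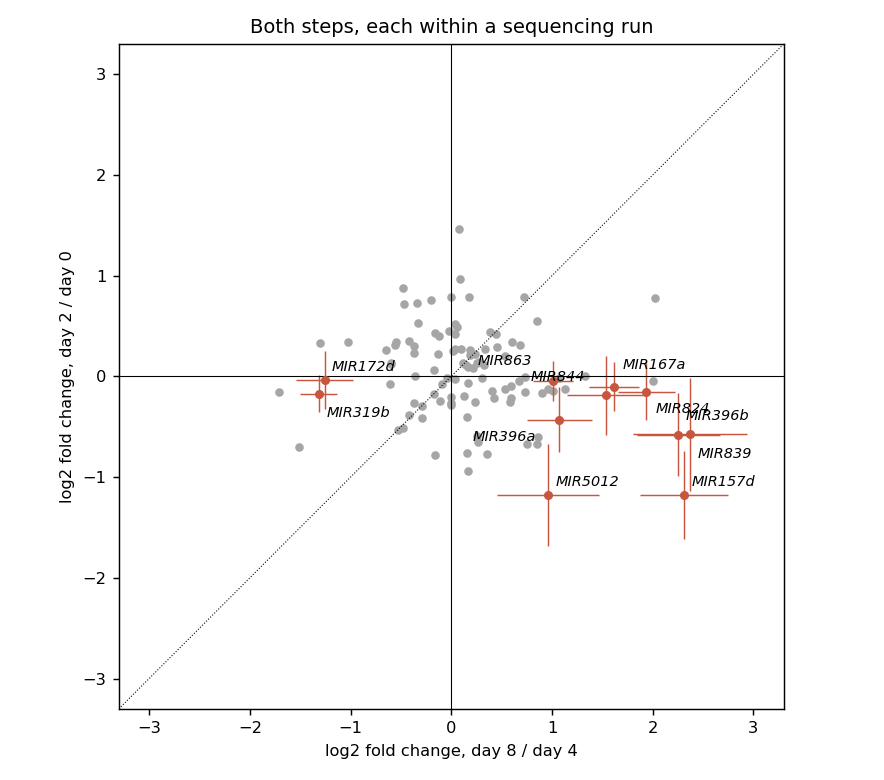
Log2 fold change of day 2 over day 0 (vertical) against that of day 8 over day 4 (horizontal), both on log2(RPM + 1), for the 109 miRNA genes, with a dotted line where they would be equal. The 11 genes in red, with bars of 1 SE, are those whose steps differed at an adjusted p under 0.05, and 9 of them lie to the lower right of the line.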

How the data were processed

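For the deposited RPM (325 genes), the authors used Trim Galore for trimming and STAR for mapping to TAIR10 and for counting reads in the hairpins of miRBase 21, and divided by the mapped reads. For the small RNA reads, tool versions were not given in the sources used here. A deposited table of RPM after quantile normalization (169 genes) served as an alternative only. 3 further library columns without a sample were not used. Depth was estimated from the step between low values (all whole multiples at a tolerance of 0.1), and as both day 0 libraries had 96 such values, reads were not taken as recovered and no count model was fitted. The estimated reads served for depth, for the chi-square comparison of replicates and as a description of genes with few reads.

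Values were fitted as log2(RPM + 1) in limma 3.58.1 (R 4.3.3), with a trend on intensity, over the 10 inflorescence libraries, 1 term per stage, so that days 4 and 8 share in the estimate of the spread. The Benjamini-Hochberg adjustment was made over all tested genes (threshold 0.05). Fold changes on this scale understate changes of genes with few reads. The fit was tested on simulated data with a fixed spread and with changes set only in the more abundant genes. That test does not cover changes of genes with few reads. The miRNA genes and family lists were chosen with earlier results of these data known. Genes named are those with an unadjusted p under 0.05, the 10 most abundant, the 2 or 3 most abundant of each list, 9 loci that the study names, and those whose steps differ. Others are named as the next locus of a family or at the edge of the filter, after their values were seen. Hairpins were matched to RefSeq's annotation of TAIR10.1 (324 of 325), and mature sequences were searched on both strands by exact match in full, without the last base and with the next base. Tables and plots were made in Python 3.11.15 (scipy 1.17.1, numpy 2.4.6, matplotlib 3.10.9, pandas 2.3.3). Alternatives were other pseudocounts, filters and scalings, a fit of the 5 libraries alone, no trend, a replicate block, and each library left out.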

Additional observations from a re-analysis of the deposited data

Results flagged for a closer look

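For 11 miRNA genes the step from day 0 to day 2 differed from the step from day 4 to day 8 by the limma contrast of the steps (adjusted p under 0.05). On the log2 scale the first step minus the second was -3.48 for *MIR157d*, -2.09 for *MIR824*, -1.72 for *MIR167a*, -2.83 for *MIR396b*, 1.14 for *MIR319b*, -1.06 for *MIR863*, -2.95 for *MIR839*, -1.50 for *MIR396a*, -1.73 for *MIR844*, 1.22 for *MIR172d* and -2.14 for *MIR5012*. They do not stand equally firm. The call was lost under 16 of 20 alternatives for *MIR5012*, 13 of 20 for *MIR844*, 13 of 21 for *MIR172d*, 12 of 20 for *MIR396a*, 5 of 21 for *MIR863*, 4 of 20 for *MIR839* and 3 of 20 for *MIR396b*, and under 2 or fewer for the other 4 genes, and no difference changed its sign. *MIR839* and *MIR5012* rest on few reads on days 0 and 2, with 1.47 and 3.20 RPM in their highest library. *MIR157d* rests on few reads on day 4, where 1 read is 1.08 RPM in replicate 1 and 0.587 RPM in replicate 2. Exact reads of its mature sequence are not counted, and neither are those of miR172d-3p for *MIR172d*. *MIR396b* had 0 and 5.29 RPM on day 4 and 11.2, 9.77 and 12.1 RPM on day 8, under its levels of 42.5 to 104 RPM on days 0 and 2. *MIR167a*, *MIR396b*, *MIR319b* and *MIR396a* are end-dependent. For *MIR319b* the sum over the miR319 loci had a difference of only -0.11 (SE 0.22), which did not pass. Groups of 2 and 3 libraries were too small for a search for single outlying libraries.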

How the results depend on the processing

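Between day 0 and day 2, 0 genes passed the limma test under each of 22 alternatives and 0 families under each of 20. The smallest adjusted p ranged from 0.202 to 0.803 over the former and from 0.0743 to 0.555 over the latter, and genes at an unadjusted p under 0.05 numbered 3 to 14. The 7 top-ranked genes kept their sign under each alternative in which they were tested. Of the 43 named genes tested, 22 changed sign under at least 1 alternative, in 47 of 915 fits, and in none of these fits did one pass the test. The 22 include *MIR159a* and *MIR159c*, whose only counted change was to 0 up to rounding, in the quantile-normalized table. The number of genes with a 95% interval within 2-fold, 35 of 109, was 103 with a pseudocount of 5, 78 of 191 with no filter and 19 to 36 with 1 library left out, where the lone day 0 library is assumed to vary like the other stages. The number of genes whose steps differ, 11, was 2 without limma's trend, 7 of 191 with no filter, 3 with the quantile-normalized table, 6 of 88 without end-dependent loci and 4 to 11 with 1 library left out. Leaving out the day 4 and day 8 libraries was added after the data were seen. With the replicate number as a block the counts were 0 genes for day 2 against day 0, 10 for the steps and 26 intervals within 2-fold. The deviations of samples with the same number had correlations of -0.01 and 0.18. With 2 day 0 libraries the deviations of day 0 are mirror images, so these correlations cannot decide whether a number stands for shared material. The difference in the share of mapped reads in miRNA genes was -0.17 percentage points and kept its sign, from -0.31 to -0.02 with 1 library left out. With 2 and 3 libraries of 1250213 to 2142752 mapped reads, a 2-fold change was not excluded for most genes of a few RPM.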
